A study of Mus musculus with 8 samples.

Results

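The genes examined were 6 genes known from enterocytes near the tip of the small intestinal villus: *Ada*, *Nt5e*, *Enpp3*, *Krt20*, *Klf4* and *Lypd8*. They were chosen by name, from knowledge of where along the villus they are used, and with earlier results of these data known. All 6 were listed both among the 11554 genes measured in crypts and among the 12701 genes measured in villi. RNA was taken from the small intestine of C57BL/6 mice 1 month after tamoxifen. Ctrl mice are labelled WT and described as Gli1-CreERT2; Rosa26-tdTomato animals. In Gli1-Ptgs cKO mice (cKO below) tamoxifen-induced Cre, driven by *Gli1*, deletes floxed *Ptgs1* and *Ptgs2*, which encode the prostaglandin-producing enzymes COX1 and COX2, in mesenchymal cells that express Gli1 and not in the epithelium itself. A legend of the study gives Ctrl mice as floxed animals without Cre, so whether Ctrl carried Cre is not settled by the sources used here, and neither the number of mice pooled per library nor their age is given there.

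Crypts were covered by 2 Ctrl and 2 cKO libraries. Villi were also deposited as 2 and 2, but the Ctrl villus columns held identical values for all 12701 genes and were counted as 1 library. Between 13477600 and 21121714 reads per library fell on the listed genes. Values below are normalized counts, that is gene counts divided by the size factor of the library, unless CPM (counts-per-million of the reads on listed genes) is named. Crypt and villus tables were normalized separately, so tissues were set side by side only in CPM, with no test. The crypt groups entered limma-trend, fitted over all listed crypt genes to log2 of the normalized count plus 1. Of the deleted genes, *Ptgs1* stood at 365.5 and 163.8 in Ctrl crypts against 178.4 and 198.9 in cKO crypts, and *Ptgs2* and *Gli1* were not among the listed genes, so these epithelial preparations do not check the labels.

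Enterocytes are born in the crypt, move up the villus over a few days and are shed at the tip, and on the way they switch from making antimicrobial proteins near the base to absorbing sugars and amino acids in the middle and to lipid handling, cell adhesion and purine breakdown at the top. The purine genes form a chain that starts at the cell surface. ENPP3 is an ectoenzyme that cleaves extracellular nucleotides, NT5E (CD73) turns AMP into adenosine, nucleoside transporters such as SLC28A2 take purine nucleosides up, and ADA (adenosine deaminase) turns adenosine into inosine. KRT20 is an intermediate filament protein of mature enterocytes and goblet cells, KLF4 is a transcription factor of postmitotic epithelial cells, and LYPD8 is a glycosylphosphatidylinositol-anchored protein best known for binding flagellated bacteria at the surface of the colon.

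The genes marked villi to very different degrees. In CPM, *Ada* stood at 15.7 and 17.5 in Ctrl crypts and at 307.5 in the Ctrl villus library. *Krt20* stood at 269.7 and 352.7 in Ctrl crypts and at 1176 in Ctrl villi. *Enpp3* stood at 8.32 and 34.2 in Ctrl crypts and at 44.7 in Ctrl villi. For these 3 genes the Ctrl villus value lay above both Ctrl crypt values, by a mean ratio of 17.6, 3.80 and 2.52 on the scale of log2(CPM + 1). *Klf4* was also above, but narrowly, with 91.4 and 102.5 CPM in crypts against 120.3 in villi. *Lypd8* had 2215 and 1837 CPM in Ctrl crypts and 1936, a value between them, in Ctrl villi. *Nt5e* was lower in the Ctrl villus library, at 3.63 CPM against 6.02 and 8.47 in Ctrl crypts, a log2 difference of -0.82 that turned to 0.15 when libraries were scaled by the median of ratios over the 11227 genes in both tables. With CPM the median of those genes differed by -1.07 between Ctrl villi and crypts on the log2 scale, and with the median of ratios by -0.01, so a gene at equal CPM was higher in villi relative to the middle gene. With the median of ratios *Lypd8* stood 1.10 higher in Ctrl villi on the log2 scale, and 5 of the 6 genes were above both Ctrl crypts. The share of all genes above both Ctrl crypts was not computed with that scaling, so this count is not read as a trait of the 6. In CPM, 4 of the 6 genes were above both Ctrl crypts in the Ctrl villus library, beside 21.3% of the genes in both tables, and 1 was below both, beside 73.7%.

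**Figure D1:**
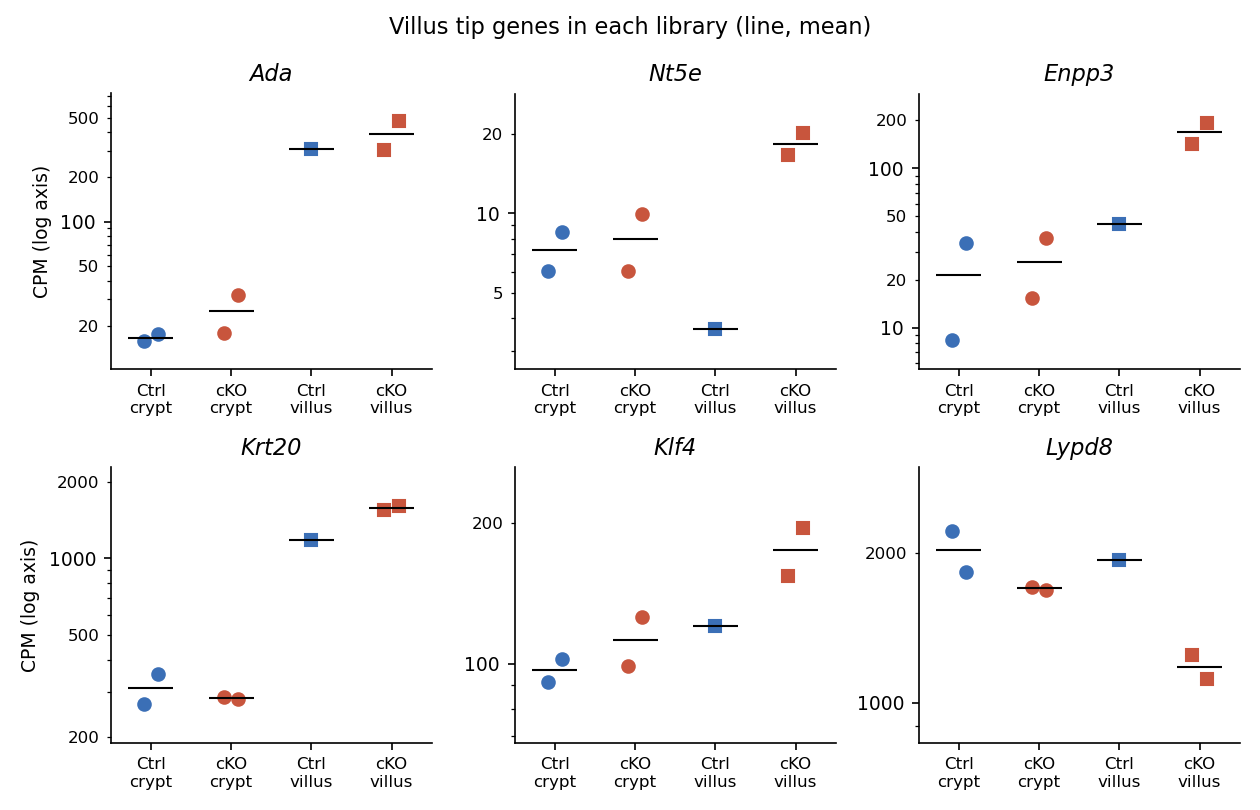
CPM (log axis) of each of the 6 genes in every distinct library, with Ctrl in blue, cKO in red, crypts as circles, villi as squares and a line at the group mean. *Ada* and *Krt20* sit higher in every villus library than in every crypt library, *Nt5e* is lowest in the Ctrl villus library at 3.63, and *Lypd8* is lowest in the cKO villus libraries, at 1247 and 1119.

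In cKO mice 5 of the 6 genes were higher in both villus libraries than in both crypt libraries, beside 15.9% of the genes in both tables. *Nt5e* was among them, with 6.04 and 9.97 CPM in cKO crypts and 16.6 and 20.03 in cKO villi, the opposite order to Ctrl. *Lypd8* was the exception, with 1710 and 1687 in cKO crypts and 1247 and 1119 in cKO villi. Per kilobase of the longest transcript, the order of the levels in the Ctrl villus library was *Lypd8* with 26830 normalized counts per kilobase, *Krt20* with 10311, *Ada* with 3078, *Klf4* with 671.2, *Enpp3* with 177.6 and *Nt5e* with 15.4. The order was the same in both cKO villus libraries, where *Lypd8* and *Krt20* came closer, at 12322 and 9677 normalized counts per kilobase in the first and 11951 and 10843 in the second. In crypts *Klf4*, at 554.1 to 784.3 normalized counts per kilobase, stood above *Ada*, at 170.4 to 358.1. *Enpp3* and *Nt5e* overlapped there, at 35.9 to 161.3 and 27.7 to 47.0.

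In villi *Nt5e* and *Enpp3* were higher in cKO than in Ctrl. *Nt5e* had 61.4 normalized counts in the Ctrl villus library, from 53 reads, and 200.3 and 260.8 in the cKO libraries. The exact Poisson 95% interval of the Ctrl value ran from 46.0 to 80.3, and that of the lower cKO value from 176.8 to 226.1. These intervals cover counting error only, and both cKO libraries were above the Ctrl library by more than that. The cKO mean was 230.5 ± 42.8 (SD, n = 2), and the log2 difference from Ctrl was 1.88.

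*Enpp3* moved with it. It had 755.3 normalized counts in the Ctrl villus library and 1713 and 2525 in the cKO libraries, with a cKO mean of 2119 ± 574.3 (SD, n = 2) and a log2 difference of 1.46. Both cKO libraries were again above Ctrl, as were 43.7% of all villus genes. *Ada*, the enzyme further down the chain, was not: it had 5196 normalized counts in Ctrl villi and 3626 and 6139 in cKO villi, so the cKO libraries lay on both sides of Ctrl and the log2 difference was -0.14. The purine nucleoside transporter *Slc28a2*, also known from the villus tip, had 213.1 normalized counts in Ctrl villi and 637.7 and 1011 in cKO villi, a log2 difference of 1.91. A paralog, *Slc28a2b*, is annotated nearby, and how reads shared by the copies were counted is not given in the sources used here.

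*Lypd8* went the other way. It had 32706 normalized counts in the Ctrl villus library and 15021 and 14568 in the cKO libraries, which were close to each other and both below Ctrl. The log2 difference was -1.14, with a cKO mean of 14794 ± 320.1 (SD, n = 2). The structural and regulatory genes differed little. *Krt20*, at 19870 normalized counts in Ctrl and 18647 and 20895 in cKO villi, had a log2 difference of -0.01. *Klf4*, at 2033 in Ctrl and 1860 and 2548 in cKO villi, had one of 0.10. For both genes the Ctrl value lay between the cKO values.

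Past a 2-fold difference, with both cKO libraries on the same side of Ctrl, there were thus 2 of the 6 genes higher, beside 13.4% of all villus genes, and 1 lower, beside 9.40%. The median log2 difference of the 6 genes was 0.04, and that of all villus genes -0.01. With 1 distinct Ctrl villus library these differences have no replicate check in Ctrl. If that library is assumed to vary like the cKO libraries, limma-trend gave an adjusted p of 0.0075 for *Nt5e*, 0.010 for *Enpp3* and 0.0097 for *Lypd8*, and of 0.746 to 0.976 for the other three, in a fit where 34.8% of all villus genes passed an adjusted p under 0.05. Scaled by library size alone, the median of all villus genes moved to 0.42 on the log2 scale. *Nt5e* was then at 2.31, *Enpp3* at 1.89 and *Lypd8* at -0.71, so *Lypd8* was no longer past 2-fold, while *Krt20*, at 0.42, and *Klf4*, at 0.53, stood close to that median.

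Transcript length moved with the villus differences and was set beside each gene. Over the villus genes, Spearman's rho between the length of the longest transcript and the log2 difference from Ctrl was 0.54 in cKO villus library 1 and 0.51 in library 2, a correlation across genes of libraries that share 1 Ctrl. The longest transcripts span 3995 bases for *Nt5e*, 4253 for *Enpp3*, 3029 for *Klf4*, 1927 for *Krt20*, 1688 for *Ada* and 1219 for *Lypd8*. The genes that were higher in cKO thus have the longest transcripts of the 6, and the gene that was lower has the shortest. After a lowess curve over length was subtracted from each library, the log2 difference was 1.79 for *Nt5e* and 1.32 for *Enpp3*, both still past 2-fold in the mean, and -0.46 for *Lypd8*, no longer past it. *Krt20* came to 0.43, *Ada* to 0.39 and *Klf4* to 0.23. For each of these genes both cKO libraries then lay above Ctrl, at 0.38 and 0.48 for *Krt20*, 0.05 and 0.73 for *Ada* and 0.01 and 0.45 for *Klf4*. With this correction 10.7% of all villus genes were past 2-fold higher and 4.02% lower, and the median of the 6 genes was 0.41 against 0.05 over all genes.

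**Figure D2:**
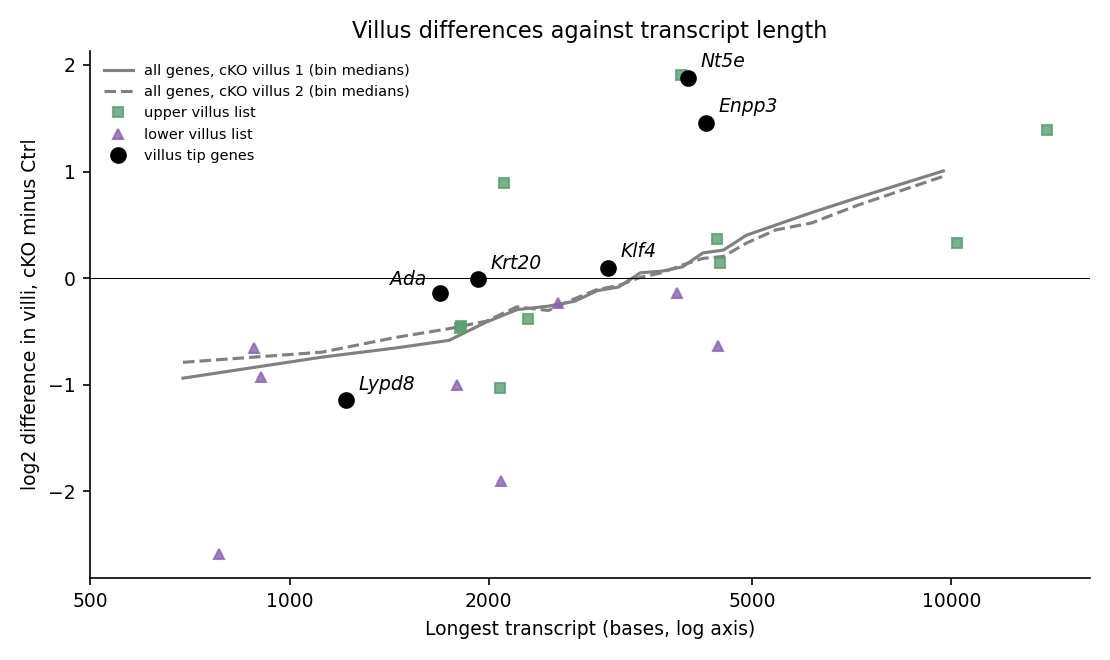
Log2 difference of cKO from Ctrl in villi (y axis) against the length of the longest transcript in bases (x axis, log), with the 6 genes in black, other upper-villus genes as green squares, lower-villus genes as purple triangles and grey lines through the medians of 20 length bins of all villus genes in each cKO library. *Nt5e*, at 1.88, and *Enpp3*, at 1.46, stand well above the lines at their length, while *Lypd8*, at -1.14, lies nearer to them.

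The sequences before the start sites of the 3 genes past 2-fold are shown because 2 of these genes moved together and the third moved against them. Each is the 250 bases before the RefSeq start on GRCm38.p6, read 5′ to 3′ on the strand of the gene, with capitals marking the letters TATAA or GGGCGG on either strand. The windows are chr9:88327359-88327608 (plus strand) for *Nt5e*, chr10:24836196-24836445 (minus strand) for *Enpp3* and chr11:58378782-58379031 (plus strand) for *Lypd8*.
Nt5e: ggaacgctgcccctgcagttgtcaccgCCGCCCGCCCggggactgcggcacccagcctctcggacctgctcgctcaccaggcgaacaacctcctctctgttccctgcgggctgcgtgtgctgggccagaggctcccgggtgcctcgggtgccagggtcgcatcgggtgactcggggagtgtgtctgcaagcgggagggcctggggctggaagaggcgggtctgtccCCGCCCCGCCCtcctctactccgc
Enpp3: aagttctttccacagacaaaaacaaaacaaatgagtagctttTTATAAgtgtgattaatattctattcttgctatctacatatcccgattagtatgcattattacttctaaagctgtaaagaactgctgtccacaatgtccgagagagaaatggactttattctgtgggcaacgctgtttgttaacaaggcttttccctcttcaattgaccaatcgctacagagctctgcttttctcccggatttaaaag
Lypd8: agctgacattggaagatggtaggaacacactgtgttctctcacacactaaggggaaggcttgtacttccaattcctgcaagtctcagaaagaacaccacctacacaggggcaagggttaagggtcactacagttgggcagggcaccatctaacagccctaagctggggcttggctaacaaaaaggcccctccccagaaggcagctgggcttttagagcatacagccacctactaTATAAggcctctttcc
*Nt5e* and *Enpp3* did not share these letters. The *Nt5e* window is 72% G or C and holds GGGCGG 4 times, counting overlapping copies, and no TATAA. The *Enpp3* window is 36.8% G or C and holds no GGGCGG, and its TATAA, read on both strands of TTATAA, begins 207 bases before the start. In the *Lypd8* window TATAA begins 16 bases before the start. TATAA was present in 22.8% and GGGCGG in 32.7% of 32851 RefSeq windows of the same length, so a match describes the letters only. The RefSeq start of *Enpp3* lies 6628 bases from the outer end of the gene in GENCODE M21, that of *Nt5e* 412 bases and that of *Lypd8* 11 bases. A second RefSeq entry for *Lypd8* starts 1603 bases into the gene and is not shown.

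On GRCm38 the genes lie on separate stretches of the genome: *Ada* at chr2:163726584-163750239, *Nt5e* at chr9:88327197-88372092, *Enpp3* at chr10:24772406-24842823, *Klf4* at chr4:55527143-55532466, *Krt20* at chr11:99428403-99438150 and *Lypd8* at chr11:58379043-58390728. None overlaps another gene in GENCODE M21, so reads of an overlapping neighbour do not enter these values.

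In crypts none of the 6 genes passed the test. *Ada* had 287.7 and 333.1 normalized counts in Ctrl crypts and 366.2 and 604.5 in cKO crypts. Both cKO values were above both Ctrl values, and the log2 fold change was 0.60 ± 0.34 (SE) with an unadjusted limma p of 0.125. *Klf4* had the same order, with 1678 and 1949 in Ctrl and 2032 and 2376 in cKO crypts, and a log2 fold change of 0.28 ± 0.24 (SE). No other gene of the 6 had groups that did not overlap, so this held for 2 of 6 above, beside 9.73% of all crypt genes, and 0 of 6 below, beside 11.3%.

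*Nt5e* and *Enpp3*, the genes that differed in villi, overlapped between genotypes in crypts. *Nt5e* had 110.6 and 161.1 normalized counts in Ctrl and 123.8 and 187.7 in cKO crypts, a log2 fold change of 0.19 ± 0.43 (SE). *Enpp3* had 152.7 and 649.9 in Ctrl and 313.7 and 686.1 in cKO crypts, a log2 fold change of 0.56 ± 0.70 (SE). The second library of each genotype held the higher value of both genes, and the *Enpp3* values within each genotype were further apart than the group means. Leaving out Ctrl library 2 gave *Enpp3* a log2 fold change of 1.60 and leaving out Ctrl library 1 one of -0.49, so its direction in crypts rests on which Ctrl library is used.

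*Krt20* had 4951 and 6705 normalized counts in Ctrl and 5872 and 5310 in cKO crypts, with both cKO values inside the Ctrl range and a log2 fold change of -0.05 ± 0.27 (SE). *Lypd8* had 40663 and 34919 in Ctrl and 35069 and 31778 in cKO crypts. The groups overlapped by a narrow margin, and the log2 fold change was -0.17 ± 0.34 (SE). At the threshold of the study, an unadjusted p under 0.01 and a 2-fold change, limma-trend called 0 of the 6 genes, beside 0.182% of all crypt genes. It called none at an adjusted p under 0.05 (0% of all crypt genes) and 0 of 6 at an unadjusted p under 0.05, where 73 crypt genes lay. edgeR and DESeq2 on the recovered reads also called 0 of the 6. With 2 libraries a group, the smallest two-sided p that an exact permutation can reach is 0.333. The 95% intervals of the log2 fold changes from limma ran from -0.22 to 1.42 for *Ada*, from -0.83 to 1.21 for *Nt5e*, from -1.11 to 2.23 for *Enpp3*, from -0.69 to 0.60 for *Krt20*, from -0.30 to 0.86 for *Klf4* and from -0.98 to 0.63 for *Lypd8*. A 2-fold change thus lay outside the interval for *Krt20* and *Klf4*, at its edge for *Lypd8* and inside it for the others. Whether the difference between genotypes itself differed between villi and crypts was not tested, since villi have 1 Ctrl library.

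**Figure D3:**
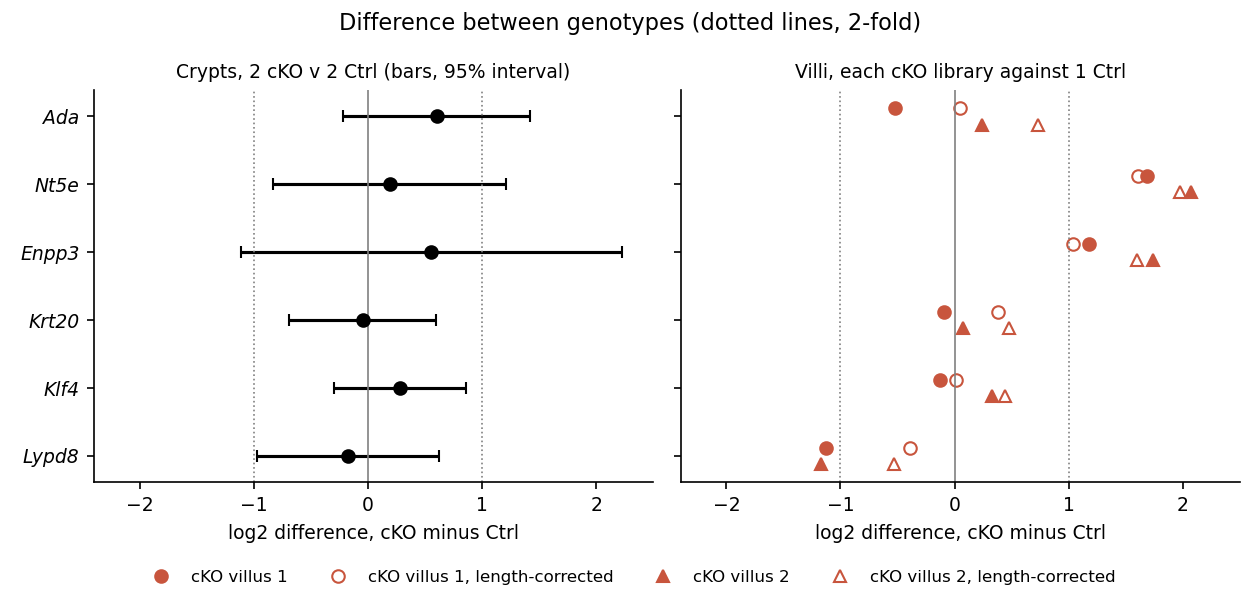
Log2 difference of cKO from Ctrl for the 6 genes, in crypts (left, limma estimate with its 95% interval) and in villi (right, each cKO library against the Ctrl library, filled as measured and open after the length correction). All crypt intervals include 0, while *Nt5e* and *Enpp3* lie past the dotted 2-fold lines in both cKO villus libraries and *Lypd8* does so only before the correction.

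Other genes of the villus axis were listed beside the 6. Of 10 other genes known from the upper villus, 2 were past 2-fold higher in cKO villi, *Slc28a2* and the lipoprotein gene *Apob* (7020 normalized counts in Ctrl, 22005 and 15373 in cKO), and 1 was lower, the cell cycle inhibitor *Cdkn1a* (5895 in Ctrl, 2591 and 3201 in cKO). Over all villus genes 13.4% were past 2-fold higher and 9.40% lower. Of the 10 genes, 5 were above Ctrl in both cKO villus libraries and 4 below, beside 43.7% and 44.2% of all villus genes. The median log2 difference of the 10 was 0.24. *Apob*, with a transcript of 13934 bases, came to 0.27 after the length correction, and *Slc28a2* to 1.84. *Cdkn1a* came to -0.64, no longer past 2-fold, and the immediate early gene *Fos*, at 0.89 before it, to 1.28. All 8 genes known from the lower villus were below Ctrl in both cKO villus libraries, as were 44.2% of all villus genes, and 2 were past 2-fold, the antimicrobial lectins *Reg3b* (161597 in Ctrl, 25433 and 28464 in cKO) and *Reg3g* (46512 in Ctrl, 10864 and 14177 in cKO). Their median was -0.79, or -0.36 after the length correction. *Lypd8* lay with the lower-villus genes in direction and not with *Nt5e* and *Enpp3*. It shared that direction with the 4 upper-villus genes below Ctrl too, among them *Apoa4* (24851 in Ctrl, 19310 and 17276 in cKO). *Apoa4* had a log2 difference of -0.44, or 0.04 after the length correction. In crypts none of these 18 genes passed the threshold of the study.

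Among 27 other listed genes of purine handling, 2 were past 2-fold higher in cKO villi, *Slc28a2* and the ectoenzyme *Enpp1* (47.5 normalized counts in Ctrl, 120.0 and 99.5 in cKO), and 2 were lower, the salvage enzymes *Pnp2* and *Aprt*. Over all villus genes 13.4% were past 2-fold higher and 9.40% lower. After the length correction only *Slc28a2* of this list remained past 2-fold. The median of the list was 0.12, so the higher values of *Nt5e* and *Enpp3* were not shared by purine genes at large. The genes with the highest values of this list differed little: the brush border phosphatase *Alpi* had 17300 normalized counts in Ctrl and 17847 and 15062 in cKO villi, and guanine deaminase *Gda* 12391 in Ctrl and 13165 and 15578 in cKO. None of 25 listed in crypts passed the threshold there.

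Family relatives were read in the same way, beside 13.4% of all villus genes past 2-fold higher and 9.40% past 2-fold lower. Of 5 other epithelial keratins, 4 were below Ctrl in both cKO villus libraries and 2 past 2-fold, *Krt8* (69748 normalized counts in Ctrl, 28165 and 31449 in cKO) and *Krt19* (32372 in Ctrl, 15210 and 13097 in cKO), whereas the *Krt20* values of cKO lay on both sides of Ctrl. After the length correction neither *Krt8* nor *Krt19* was past 2-fold, at -0.80 and -0.63, and *Krt20* was above Ctrl in both cKO libraries. Of 11 other *Klf* genes, 1 was past 2-fold, *Klf11*, from 20.9 normalized counts in Ctrl to 58.1 and 53.1 in cKO villi. Of 4 listed relatives of *Lypd8* in the Ly6 and uPAR family, all were below Ctrl in both cKO villus libraries, as were 44.2% of all villus genes, with *Ly6e* past 2-fold (1939 in Ctrl, 734.8 and 867.3 in cKO). After the length correction none of these relatives was past 2-fold, *Ly6e* came to -0.94, and the median of the 4 moved from -0.73 to -0.06.

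Set against enterocyte content, the genes did not give 1 common measure of the tip. The summed normalized counts of the 6 genes were divided by those of 10 general enterocyte genes (*Alpi*, *Fabp1*, *Fabp2*, *Apoa1*, *Sis*, *Lct*, *Slc5a1*, *Slc2a2*, *Slc15a1* and *Anpep*). The ratio was 0.497 and 0.310 in Ctrl crypts and 0.398 and 0.338 in cKO crypts. It was 0.121 in the Ctrl villus library and 0.102 and 0.134 in cKO villi. The ratio was thus higher in crypts than in villi and overlapped between genotypes in both tissues. *Lypd8* made up 77.6% to 85.0% of the sum in crypts, 54.0% in Ctrl villi and 36.6% and 31.0% in cKO villi. Without it the ratio was 0.0746 and 0.0680 in Ctrl crypts, 0.0792 and 0.0756 in cKO crypts, 0.0557 in Ctrl villi and 0.0648 and 0.0926 in cKO villi. The cKO ratios were then above the Ctrl ratios in each tissue. In villi the sum of these 5 genes itself lay on both sides of Ctrl, at 27916 normalized counts in Ctrl and 26047 and 32368 in cKO. The enterocyte sum was lower in cKO in normalized counts, at 500754 in Ctrl and 401709 and 349652 in cKO. In CPM the enterocyte sum lay on both sides of Ctrl, at 29635 in Ctrl villi and 33357 and 26860 in cKO villi. In normalized counts the short transcripts *Fabp1*, *Fabp2* and *Apoa1* had log2 differences of -0.49, -0.63 and -0.83 in villi, and of 0.73, 0.15 and -0.07 after the length correction. *Krt20* dominated the sum of the 5 genes.

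**Figure D4:**
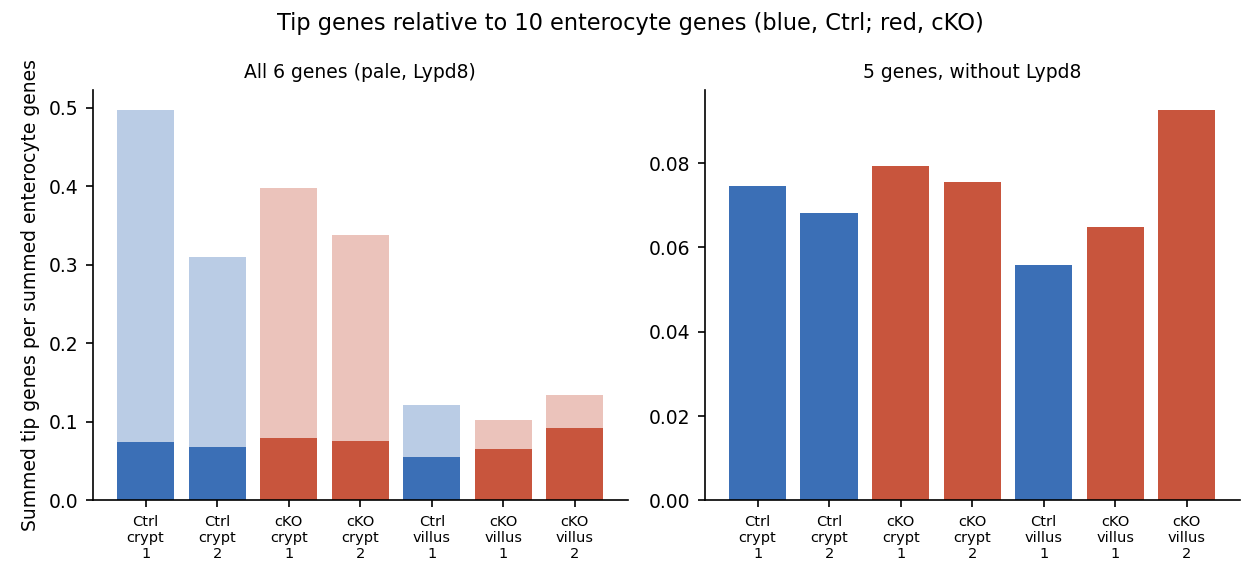
Summed normalized counts of the villus tip genes divided by those of 10 enterocyte genes in each distinct library, for all 6 genes (left, with *Lypd8* in the pale part of the bar) and for the 5 genes without *Lypd8* (right). With *Lypd8* the crypt bars, at 0.310 to 0.497, exceed the villus bars, at 0.102 to 0.134, and without it all 7 bars lie between 0.0557 and 0.0926.

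Per 1000 normalized counts of the enterocyte genes, *Ada* stood at 10.4 in Ctrl villi and 9.03 and 17.6 in cKO villi. *Nt5e* stood at 0.123 in Ctrl and 0.499 and 0.746 in cKO villi, and *Enpp3* at 1.51 in Ctrl and 4.26 and 7.22 in cKO villi. *Lypd8* stood at 65.3 in Ctrl and 37.4 and 41.7 in cKO villi. The 3 genes past 2-fold in villi thus kept their direction when scaled to enterocyte genes, whose sum was lower in cKO in normalized counts but not in CPM.

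Across the 7 distinct libraries the CPM values of 4 of the genes, *Ada*, *Krt20*, *Enpp3* and *Klf4*, were the most alike. Pearson's r of log2(CPM + 1) was 0.98 between *Ada* and *Krt20* and 0.95 between *Enpp3* and *Klf4*. *Nt5e* had 0.76 with *Enpp3* and 0.79 with *Klf4*, but 0.42 with *Ada* and 0.46 with *Krt20*. Between *Lypd8* and each of the others it lay between -0.92 and -0.69. These values describe 2 tissues whose libraries share their preparation, so much of each r is the step from crypt to villus. Of 9022 genes listed in both tables with a mean of at least 10 CPM over the 7 libraries, the 5 most like the mean standardized pattern of the 6 genes were *Cyp2c66*, *Gimap3*, *Sh2d6*, *Pstpip2* and *Gtpbp2*, with r between 0.989 and 0.993. When *Lypd8*, which runs against the others, was left out of the pattern, the 5 were *Sh2d6*, *Bco2*, *Acad11*, *Cyp2c66* and *Cyp3a25*. *Cyp2c66*, a cytochrome P450, ran from 27.3 and 40.1 CPM in Ctrl crypts through 66.4 in Ctrl villi to 125.6 and 124.1 in cKO villi.

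Markers of other cell types were read for the cells that also use these genes. In bulk RNA, fewer cells of a type and less RNA per cell cannot be told apart. *Nt5e* and *Ada* are also expressed by lymphocytes. Of 7 lymphocyte markers, 1 was past 2-fold higher in cKO villi, *Ptprc* (200.4 normalized counts in Ctrl, 607.8 and 722.5 in cKO), and 3 were lower, the B and plasma cell genes *Cd79a*, *Jchain* and *Igkc*. Over all villus genes 13.4% were past 2-fold higher and 9.40% lower. The T cell genes *Cd3e* (232.8 in Ctrl, 211.8 and 253.1 in cKO) and *Cd8a* had log2 differences of -0.01. The remaining marker, *Gzma*, had 8289 normalized counts in Ctrl villi and 3733 and 4767 in cKO villi. Its log2 difference was -0.97, or -0.20 after the length correction. The summed level of the 7 markers was 15945 normalized counts in Ctrl villi and 6084 and 8018 in cKO villi. *Gzma* was the largest part of that sum in every villus library. *Nt5e* also marks fibroblasts. The 5 listed mesenchymal markers summed to 1461 normalized counts in Ctrl villi and 1670 and 1532 in cKO villi, with none past 2-fold. *Enpp3* marks basophils and mast cells. Of 5 such markers, *Cpa3* and *Fcer1a* were not among the listed genes. The 3 listed summed to 230.5 in Ctrl villi and 273.0 and 259.8 in cKO villi. Of these *Kit*, also used by other cells, was past 2-fold higher, at 64.9 in Ctrl and 142.2 and 168.1 in cKO. *Mcpt1* (118.2 in Ctrl, 93.3 and 68.6 in cKO) and *Mcpt2* (47.5 in Ctrl, 37.5 and 23.2 in cKO) were below Ctrl in both cKO libraries. After the length correction the log2 differences were 0.90 for *Kit*, 0.21 for *Mcpt1* and 0.08 for *Mcpt2*. The part of these cells in the villus differences was not tested.

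*Krt20* and *Klf4* are also used by surface cells of the stomach, whose markers were higher in cKO crypts. Of 6 listed markers, 5 passed the threshold of the study in crypts, beside 0.182% of all crypt genes. All 6 had both cKO values above both Ctrl values, beside 9.73%. The study had already reported those 5, *Gkn1*, *Gkn2*, *Tff2*, *Muc5ac* and *Anxa10*, as higher in cKO crypts, so these counts are not separate support. They summed to 23134 and 29074 normalized counts in Ctrl crypts and 104080 and 57621 in cKO crypts. *Krt20* in crypts did not move with them, while both cKO values of *Klf4* were above Ctrl. The part of gastric surface cells in the *Klf4* values was not tested. In villi 5 of these markers were listed, with summed levels of 68.3 normalized counts in Ctrl and 350.9 and 162.3 in cKO. Crypt stem cell markers, which show how cleanly tissues were parted, summed to 5654 and 5461 CPM in Ctrl crypts, 181.3 in Ctrl villi and 426.6 and 321.1 in cKO villi.

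Library differences touched the crypt results as well. In crypts, Spearman's rho between transcript length and the difference of a library from the other crypt libraries was -0.67 for cKO library 1 and 0.24 to 0.57 for the others. Without cKO library 1 the log2 fold change of *Ada* was 0.96 with an unadjusted p of 0.0048 and did not reach 2-fold, and without cKO library 2 that of *Enpp3* was -0.01. After the length correction *Ada* came to 0.41 ± 0.42 (SE) and *Lypd8* to -0.47 ± 0.27 (SE), and none of the 6 passed the threshold.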

How the data were processed

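RNA-seq of small intestinal crypts and villi was analysed from the tables deposited by the authors. Per the study's methods and the submitters' processing notes, the authors aligned reads to mm10 with STAR and compared groups with DESeq2. The deposited signal of each library is its gene count divided by the DESeq2 size factor. The counting program, strand setting and annotation are not given in the sources used here, and the labels and methods name different RNA and library kits. Columns of the authors' own comparisons (fold changes, standard errors, p-values) were not used. Columns of unmapped samples numbered 0.

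The 6 genes and all gene lists were chosen with earlier results of these data known. The spacing between values gives what 1 read is worth, and 100% of the values came out as whole reads within 0.01 read. As the values are normalized, 2 Ctrl and 2 cKO crypt libraries were compared without a block by limma-trend, from limma 3.58.1 under R 4.3.3, on the log2 scale with a pseudocount of 1 and a minimum mean of 1. Nothing says that replicates came from separate animals beyond the methods' term biological replicates, so p-values measure the spread between libraries. Villi were not tested, apart from limma-trend with 1 Ctrl library as an alternative. Other alternatives were edgeR 4.0.16 and DESeq2 1.42.0 on the recovered reads, the replicate number as a block, library size scaling, a pseudocount of 0.1, at least 10 reads in every library, no filter, a length correction (lowess, span 0.3, GENCODE M21) and leaving out each library. Named genes were the 6, genes of each list past the threshold or among its 3 highest, the 5 most alike in pattern over the libraries, and genes of other cell types where set beside a result. The fit was tested on simulated data. Promoters are RefSeq's.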

Additional observations from a re-analysis of the deposited data

Results flagged for a closer look

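Of 76 genes checked, the 6 villus tip genes and those of the upper-villus, lower-villus, purine, keratin, *Klf*, Ly6 and enterocyte lists found in both tables, 13 moved one way in both cKO crypt libraries and the opposite way in both cKO villus libraries, with no overlap with Ctrl. None of the 6 villus tip genes was among them. The share of such genes over all genes in both tables was not computed, so the count is not read as a trait of these lists. The difference between tissues was not tested, and the villus side rests on 1 Ctrl library. Lower in crypts and higher in villi were *Cdh1* (log2 difference -0.18 in crypts, 0.37 in villi) and *Egfr* (-0.42, 0.33). The other 11 were higher in crypts and lower in villi. Of the upper and lower villus these were *Creb3l3* (0.48, -0.38), *Reg1* (0.21, -0.93) and *Gsdmd* (0.37, -0.9985). Of purine handling they were *Entpd2* (0.31, -0.46) and *Nt5c* (0.62, -0.97). Of the keratins they were *Krt7* (0.71, -0.63) and *Krt8* (0.51, -1.23). The rest were *Klf10* (0.32, -0.54), *Klf16* (0.41, -0.50), *Ly6d* (1.70, -0.71) and *Fabp1* (0.42, -0.49). After the length correction the crypt and villus differences had the same sign for *Egfr* (-0.10, -0.57), *Reg1* (-0.18, -0.12) and *Ly6d* (1.25, 0.25). Those of *Fabp1* were reversed (-0.12, 0.73). The other genes named here kept opposite signs, with *Krt7* at 0.75 and -0.74 but *Entpd2* at 0.17 and -0.03.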

How the results depend on the processing

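No alternative called any of the 6 genes in crypts, where the lowest adjusted p of any of them in any fit was 0.539. Over all crypt genes 21 passed the threshold of the study, against 78 with the replicate number as a block, 65 by DESeq2 and 18 to 881 when 1 library was left out, with the 881 coming without cKO library 2. The block called 0 of the 6. The numbers rest on a correlation of 0.25 between the deviations of same-numbered libraries, and the sources used here do not say what a number shares. Leaving out 1 crypt library, the log2 fold change ran from -0.11 to 0.49 for *Nt5e*, from -0.26 to 0.17 for *Krt20* and from -0.49 to 1.60 for *Enpp3*, each across 0. Those of *Ada*, *Klf4* and *Lypd8* kept their sign under every alternative run. Of the 6 genes 2, in place of 3, were past 2-fold in villi after scaling by library size alone or the length correction, each time without *Lypd8*. Leaving out either cKO villus library, all 3 stayed past 2-fold. *Nt5e* was higher in villi than crypts by 0.15 with the median of ratios and by 1.13 in cKO libraries, against -0.82 in Ctrl. The log2 difference between genotypes in the ratio of the tip genes to enterocyte genes in villi was -0.05 with all 6 genes, 0.47 without *Lypd8* and -0.41 with medians of log2 values in place of sums. With a library left out it ran from -0.24 to 0.15 in villi and from -0.44 to 0.24 in crypts. The low read number of *Nt5e* and the single Ctrl villus library limit what villi can show.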
